A study of Mus musculus with 6 samples.

Results

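Azurophil granules, also called primary granules, are the first granules a neutrophil makes, and their contents are transcribed in the promyelocyte, an early dividing precursor in the marrow. Transcription of these genes then stops, and later stages turn to the genes of the specific granules and of the mature cell. The 10 genes described here were taken by symbol from the 47561 rows deposited for each library. They encode a peroxidase (Mpo), serine proteases (Elane, Prtn3, Ctsg and Prss57), an intracellular inhibitor of those proteases (Serpinb1a), a lectin (Fcnb), a membrane protein of progenitors (Ms4a3) and 2 glutathione transferases (Mgst2 and Gstm1).

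RNA of mouse bone marrow cells was sequenced in 3 libraries of the group CUMS, given chronic unpredicted mild stress (a schedule of varying mild stressors used to induce depression-like behaviour) for 4 weeks, labelled as depression, and in 3 libraries of negative controls. The genotype label repeats the group name and gives no allele, and the strain, sex and age of the mice, and whether each library came from 1 animal, are not given in the sources used here. The p-values then measure only the spread between these libraries, which may be technical. Values are FPKM, fragments scaled to transcript length and to the total of the library. The length used for each gene is not stated, which limits the comparison of levels between genes. Each library summed to 593129 to 653026 FPKM in CUMS and 561563 to 658595 FPKM in controls, with 21334 to 23224 and 21344 to 23172 rows above 0. Depth in counts is unknown.

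One feature of the libraries touches every result below. The deposited column names hold a code that is 1 in replicate 1 of each group and 2 in the other 4 libraries, and its meaning is not stated. With group as a term, 3747 of 12302 tested genes (30.5%) differed between the codes at a limma adjusted p under 0.05. Each group holds 1 library of code 1 and 2 of code 2. The 10 genes and the lists are therefore given for the groups alone, and also with the code as a term and in the 4 libraries of code 2.

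The sequences before the start sites of the genes are shown for the peroxidase and the 3 abundant proteases, which share a motif, and for Fcnb, which holds a motif that none of these has. PU.1, C/EBP, MYB and RUNX proteins are the transcription factors best known for driving these genes. The 250 bases before the transcript start in the RefSeq promoter table (GRCm38.p6) were searched on both strands for GAGGAA, the core bound by PU.1, and for TTGCNNAA, a site type of C/EBP proteins. Matches on either strand are in capitals (TTGCNNAA reads TTNNGCAA on the other strand), and each sequence runs 5′ to 3′ on the gene's own strand.
Mpo (chr11:87793534-87793783, plus strand): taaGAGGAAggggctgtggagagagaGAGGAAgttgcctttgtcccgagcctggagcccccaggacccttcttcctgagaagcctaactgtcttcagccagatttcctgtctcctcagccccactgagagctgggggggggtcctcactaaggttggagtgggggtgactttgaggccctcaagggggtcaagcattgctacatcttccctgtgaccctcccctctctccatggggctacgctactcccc
Elane (chr10:79886062-79886311, plus strand): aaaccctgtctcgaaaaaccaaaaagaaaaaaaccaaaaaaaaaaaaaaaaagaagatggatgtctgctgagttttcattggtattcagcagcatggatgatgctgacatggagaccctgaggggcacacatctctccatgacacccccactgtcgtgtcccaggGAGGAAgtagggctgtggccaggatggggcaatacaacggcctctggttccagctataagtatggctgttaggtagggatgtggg
Prtn3 (chr10:79879417-79879666, plus strand): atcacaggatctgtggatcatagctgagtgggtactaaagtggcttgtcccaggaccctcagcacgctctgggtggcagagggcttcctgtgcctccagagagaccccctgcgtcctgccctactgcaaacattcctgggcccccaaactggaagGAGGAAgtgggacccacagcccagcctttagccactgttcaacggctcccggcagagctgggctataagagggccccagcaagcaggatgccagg
Ctsg (chr14:56102575-56102824, minus strand): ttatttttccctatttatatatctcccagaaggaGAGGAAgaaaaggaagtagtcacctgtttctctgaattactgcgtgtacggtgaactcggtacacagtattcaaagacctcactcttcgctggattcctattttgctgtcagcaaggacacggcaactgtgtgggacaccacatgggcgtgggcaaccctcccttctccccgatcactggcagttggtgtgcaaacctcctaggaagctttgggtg
Fcnb (chr2:28084879-28085128, minus strand): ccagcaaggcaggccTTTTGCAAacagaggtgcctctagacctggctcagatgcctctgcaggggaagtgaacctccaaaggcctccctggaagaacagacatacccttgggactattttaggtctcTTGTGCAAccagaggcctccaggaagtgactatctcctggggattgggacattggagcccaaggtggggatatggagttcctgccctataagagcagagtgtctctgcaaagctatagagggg
GAGGAA was found before Mpo, Elane, Prtn3 and Ctsg and before none of the other 4 genes with a RefSeq promoter entry (Ms4a3, Fcnb, Mgst2 and Gstm1), against 23.3% of 32851 promoters of the same length. Prtn3 and Elane, which lie next to each other on chromosome 10, hold it 95 and 85 bases before their start sites, while Ctsg holds it 216 bases before and Mpo 247 and 224 bases before. TTGCNNAA was found before Fcnb alone among the 8, at 235 and 123 bases, and in 9.56% of all promoters, and the match at 235 bases shares its last base with a MYB core match at 228 bases. The RUNX core TGTGGT was found before Ctsg and Mgst2 (14% of all promoters), and the MYB core AACNG before 7 of the 8 genes (74.2% of all promoters). For Fcnb and Mgst2 this transcript start lies inside the RefSeq gene as given below and is not its outer end, and for Gstm1, with 2 entries, the first was used. A match is a run of letters and no evidence that a factor binds there. The motifs were chosen with these sequences in view, so the shares of all promoters are a description and test no enrichment.

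In RefSeq's annotation of GRCm38.p6 Prss57 at chr10:79781474-79794684, Prtn3 at chr10:79879667-79883174 and Elane at chr10:79886312-79888216 lie on 1 chromosome, as do Mgst2 at chr3:51636912-51682675 and Gstm1 at chr3:108012250-108017973. The others are Mpo at chr11:87793784-87804412, Ctsg at chr14:56099885-56102574, Serpinb1a at chr13:32842092-32853206, Ms4a3 at chr19:11629499-11640851 and Fcnb at chr2:28076479-28084910. All 10 genes were expressed, and all 10 passed the filter of at least 1 FPKM in at least 3 libraries. Elane was the most abundant, with a mean over the 6 libraries of 720.3 FPKM and place 73 among the tested genes. Mpo followed at 581.9 FPKM (place 100) and Prtn3 at 487.7 FPKM (place 125). Elane exceeded Mpo, and Mpo exceeded Prtn3, in 6 of 6 libraries, although their ranges overlapped. The next genes were Fcnb at 194.1 FPKM, Ctsg at 173.2 FPKM, Serpinb1a at 129.2 FPKM and Ms4a3 at 84.5 FPKM. Gstm1 and Mgst2 averaged 55.0 and 54.4 FPKM, and Prss57 was the lowest at 13.2 FPKM. The order of Fcnb and Ctsg, and that of Gstm1 and Mgst2, changed between libraries (3 of 6 each way). The order of the genes also depends on the length used for scaling, which is unknown. In the GENCODE annotation the exons of Mgst2 together cover 3703 bases and its longest protein-coding transcript 603. For Prtn3 these are 1732 and 1025 bases, and for Elane 984 and 984. Mpo, Elane and Prtn3 made up 69.8% to 74.8% of the summed FPKM of the 10 genes in CUMS and 70.8% to 71.9% in controls.

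**Figure D1:**
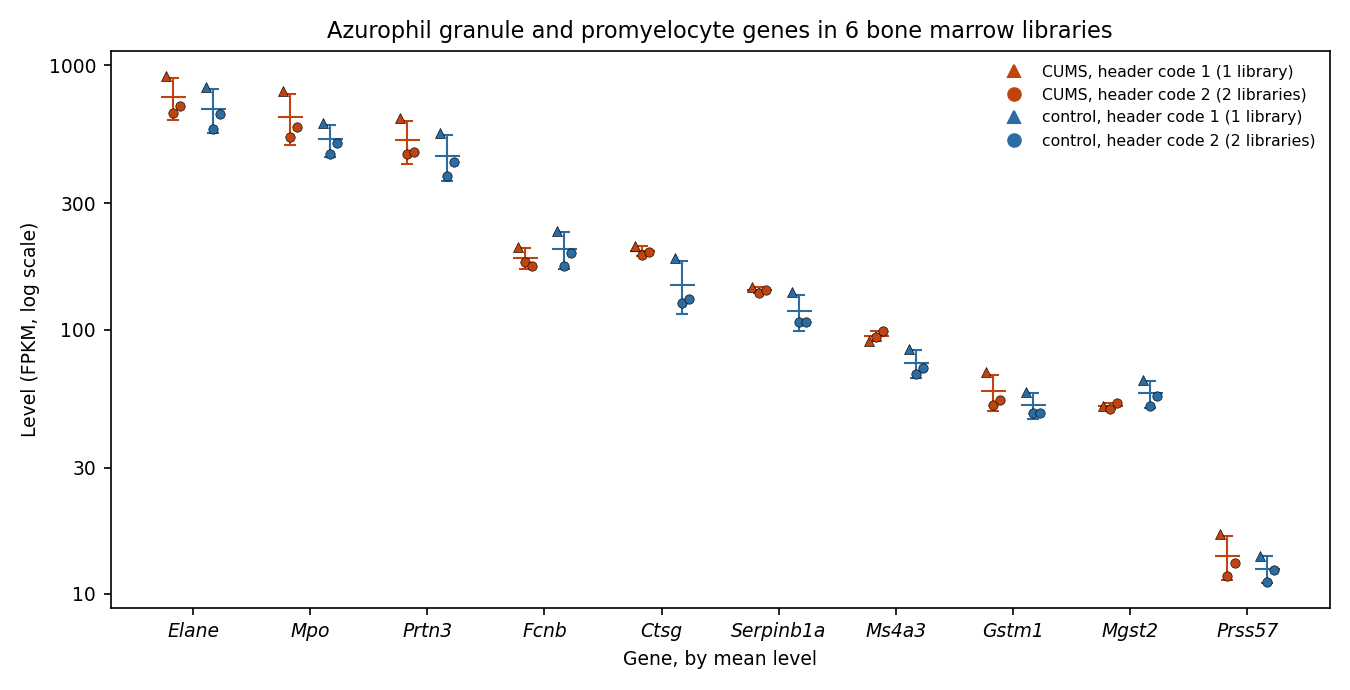
Level of each of the 10 genes (FPKM, log axis) in the 3 CUMS libraries (orange, left) and the 3 control libraries (blue, right), with the mean and SD of each group; triangles are replicate 1 (header code 1) and circles replicates 2 and 3 (header code 2). The triangle is the highest control point for all 10 genes, and the groups are apart only for Ctsg and Ms4a3, where CUMS is higher.

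In the comparison of CUMS with control, 8 of the 10 genes had higher mean levels in CUMS, and Fcnb and Mgst2 lower ones. None passed the test with group as the only term (limma on log2(FPKM + 1), lowest adjusted p = 0.189, for Ms4a3), where 1.07% of all tested genes did (0.618% rose and 0.455% fell), and 2 of the 10 (Ctsg and Ms4a3) had an unadjusted p under 0.05, against 15.4% of all tested genes. With the header code as a term, 4 of the 10 rose and none fell, where 6.06% of all tested genes rose and 7.31% fell. These were Ctsg, Ms4a3, Mpo and Serpinb1a. With the replicate number as a block only Ctsg rose, where 3.49% of all tested genes rose and 4.31% fell, and in the libraries of code 2 alone Ctsg, Ms4a3 and Serpinb1a rose, where 8.82% of all tested genes rose and 8.84% fell. The median log2 change of the 10 was 0.18, beside −0.0017 over all tested genes. Without CUMS replicate 1 it was 0.04, beside 0.0141 over all tested genes, and none of the 10 was called. The log2 change was then 0.10 for Mpo, 0.05 for Prtn3, 0.01 for Elane, 0.04 for Gstm1 and 0.0 for Prss57. It was 0.41 for Ctsg, 0.37 for Ms4a3 and 0.25 for Serpinb1a. Code 1 is left in the controls alone in that fit, so that a difference between the codes enters the change between groups. In the libraries of code 2 alone the median was 0.17, beside 0.005 over all tested genes. In whole marrow, a change in the number of promyelocytes and a change in RNA per cell cannot be told apart.

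Mpo, which makes hypochlorous acid from hydrogen peroxide and chloride, was at 798.4, 536.8 and 583.9 FPKM in CUMS replicates 1, 2 and 3, and at 603.8, 461.7 and 506.9 FPKM in control replicates 1, 2 and 3. The groups overlapped, since control replicate 1 lay above both CUMS libraries of code 2, but within each code every CUMS library was above every control library. The mean was 639.7 ± 139.5 FPKM in CUMS and 524.1 ± 72.6 FPKM in controls (SD, n = 3 each), a ratio of 1.22. The log2 change was 0.27 (SE 0.176, limma adjusted p = 0.517). With the code as a term the SE was 0.074 and the adjusted p 0.0453, and in the libraries of code 2 alone the change was 0.21 (adjusted p = 0.0755).

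Among the serine proteases, Ctsg showed the largest difference of the 10 genes. It encodes cathepsin G, a protease of chymotrypsin-like specificity that is stored active in the granule. Ctsg was at 207.7, 191.3 and 196.3 FPKM in CUMS, and at 187.0, 126.1 and 130.7 FPKM in controls, so that the lowest CUMS library lay above the highest control library. The mean was 198.4 ± 8.4 FPKM in CUMS and 147.9 ± 33.9 FPKM in controls, a ratio of 1.34 and a log2 change of 0.44 (SE 0.155, adjusted p = 0.237). The adjusted p was 0.0476 with the replicate block and 0.0198 with the code as a term. The difference was smaller in replicate 1 (0.15 on the log2 scale) than in replicates 2 and 3 (0.60 and 0.58), and in the libraries of code 2 alone it was 0.59 (SE 0.054, adjusted p = 0.00156). Whether it differed between the codes was not tested.

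Elane (neutrophil elastase) and Prtn3 (proteinase 3), closely related elastase-type proteases, moved almost as one. Elane was at 910.1, 657.0 and 702.5 FPKM in CUMS, and at 824.9, 574.1 and 653.4 FPKM in controls. Prtn3 was at 630.3, 459.6 and 470.5 FPKM in CUMS, and at 554.6, 380.7 and 430.6 FPKM in controls. For both genes replicate 1 was the highest library of each group and the groups overlapped, while within each code CUMS lay above control. The log2 changes were 0.15 for Elane (SE 0.178, adjusted p = 0.764) and 0.19 for Prtn3 (SE 0.18, adjusted p = 0.671), and neither passed with the code as a term (adjusted p = 0.195 and 0.0876) or with the block (0.214 and 0.127). In the libraries of code 2 alone the changes were 0.15 (adjusted p = 0.205) and 0.20 (adjusted p = 0.0868). The ratio of Elane to Prtn3 stayed between 1.43 and 1.49 in CUMS and between 1.49 and 1.52 in controls, the smallest spread of the 45 ratios among the 10 genes. Their transcripts share 64.8% identity over 610 aligned bases and no stretch of 151 bases, the length of a read.

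Prss57, which encodes neutrophil serine protease 4, a protease that cuts after arginine, was at 16.8, 11.7 and 13.1 FPKM in CUMS, and at 13.9, 11.1 and 12.3 FPKM in controls. The groups overlapped in code 2 as well. The log2 change was 0.14 (SE 0.146, adjusted p = 0.716, and 0.271 with the code as a term), and in code 2 alone 0.08 (adjusted p = 0.572). Its value is uncertain, since 1157 bases of its exons overlap those of Fstl3 on the opposite strand and whether strand was used in counting is not stated. The same holds for Mpo to a smaller extent, with 512 exonic bases overlapped by Gm11505, and for Prtn3, with 159 bases overlapped by Plppr3.

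Serpinb1a encodes a leukocyte serpin that inhibits elastase, cathepsin G and proteinase 3 when they leak from the granules. It was at 145.3, 137.2 and 140.5 FPKM in CUMS, and at 138.4, 106.7 and 106.8 FPKM in controls. Control replicate 1 alone reached the range of the CUMS libraries. The log2 change was 0.27 (SE 0.121, adjusted p = 0.336), and it passed with the code as a term (adjusted p = 0.0463) and in the libraries of code 2 alone (0.38, SE 0.053, adjusted p = 0.00655), but not with the replicate block (0.0922). Its closest paralogs Serpinb1b and Serpinb1c were at most 0.065 and 0.0365 FPKM in any library, so that nearly all FPKM of these 3 genes were assigned to Serpinb1a.

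Ms4a3, a tetraspan membrane protein whose gene marks granulocyte-monocyte progenitors in the mouse, was at 90.8, 93.7 and 99.0 FPKM in CUMS, and at 84.6, 67.6 and 71.5 FPKM in controls. The groups did not overlap. Among all tested genes, 10% had all CUMS libraries above all control libraries and 12.1% all below, and among the 10 genes Ctsg and Ms4a3 did. The mean of Ms4a3 was 94.5 ± 4.14 FPKM in CUMS and 74.6 ± 8.88 FPKM in controls, with a log2 change of 0.34 (SE 0.108, adjusted p = 0.189). The adjusted p was 0.0343 with the code as a term, 0.0653 with the block and 0.00522 in the libraries of code 2 alone, where the change was 0.47. Leaving out control replicate 1, the library in which all 10 genes were highest among controls, gave calls for Ctsg, Ms4a3 and Serpinb1a (adjusted p = 0.0211, 0.0475 and 0.0489). In that fit 1.3% of all tested genes rose and 0.829% fell. Code 1 is then left in CUMS alone, so that a difference between the codes enters the change between groups. Leaving out any other library gave no call among the 10.

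Fcnb and Mgst2 had lower means in CUMS. Fcnb encodes ficolin B, a lectin of mouse myeloid cells that recognises sugars on microbes and can start the lectin pathway of complement. It was at 205.2, 179.9 and 174.1 FPKM in CUMS, and at 236.2, 174.2 and 194.8 FPKM in controls, and the groups overlapped. Its log2 change was −0.11 (SE 0.134, adjusted p = 0.773, and 0.319 with the code as a term), −0.06 in code 2 alone (adjusted p = 0.582) and 0.01 without control replicate 1. Mgst2, a membrane-bound glutathione transferase that can also form leukotriene C4, was at 51.3, 50.0 and 52.8 FPKM in CUMS, and at 64.6, 51.3 and 56.2 FPKM in controls, and the groups overlapped. Its log2 change was −0.15 (SE 0.105, adjusted p = 0.552, and 0.219 with the code as a term), and in code 2 alone it was −0.06 (adjusted p = 0.557). Gstm1, a cytosolic glutathione transferase of the mu class, was at 68.9, 51.8 and 54.2 FPKM in CUMS, and at 58.2, 48.5 and 48.3 FPKM in controls, with a log2 change of 0.16 (SE 0.135, adjusted p = 0.625, and 0.104 with the code as a term) and one of 0.13 in code 2 alone (adjusted p = 0.182).

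**Figure D2:**
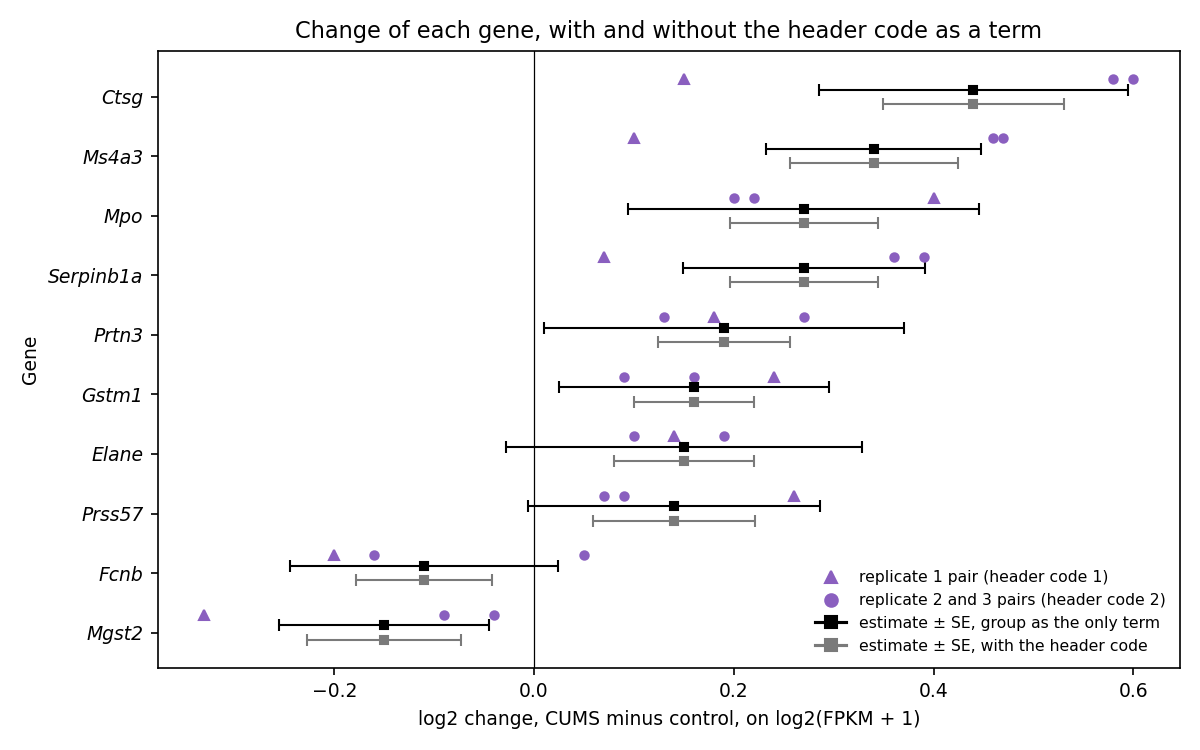
Difference of CUMS minus control on log2(FPKM + 1) for each gene: purple triangles and circles are the differences between libraries of the same replicate number, and squares with bars are the limma estimate ± SE with group as the only term (black) and with the header code as a term (grey). The estimates are equal, while the SE of Mpo is 0.176 without and 0.074 with the code; Fcnb and Mgst2 are the only genes with a negative estimate.

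Most of the 10 genes also differed between the header codes. All 10 were on average higher in the libraries of code 1 than in those of code 2, and 7 passed the test of that difference (Mpo, Elane, Prtn3, Ctsg, Prss57, Fcnb and Gstm1), where 12.7% of all tested genes were higher in code 1 and 17.7% lower. The median difference of the 10 was 0.32 on the log2 scale, beside 0.0093 over all tested genes. It was 0.45 for Prtn3 (limma adjusted p = 0.0036), 0.43 for Elane (adjusted p = 0.0055) and 0.42 for Mpo (adjusted p = 0.00713). It was least for Ms4a3 at 0.10 (adjusted p = 0.431), Mgst2 at 0.13 (adjusted p = 0.256) and Serpinb1a at 0.22 (adjusted p = 0.0677). Within both codes, every CUMS library lay above every control library for 7 of the 10 genes (Mpo, Elane, Prtn3, Ctsg, Ms4a3, Serpinb1a and Gstm1), against 21.1% of all tested genes, and for none of the 10 did CUMS lie below control in both codes (23% of all tested genes).

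**Figure D3:**
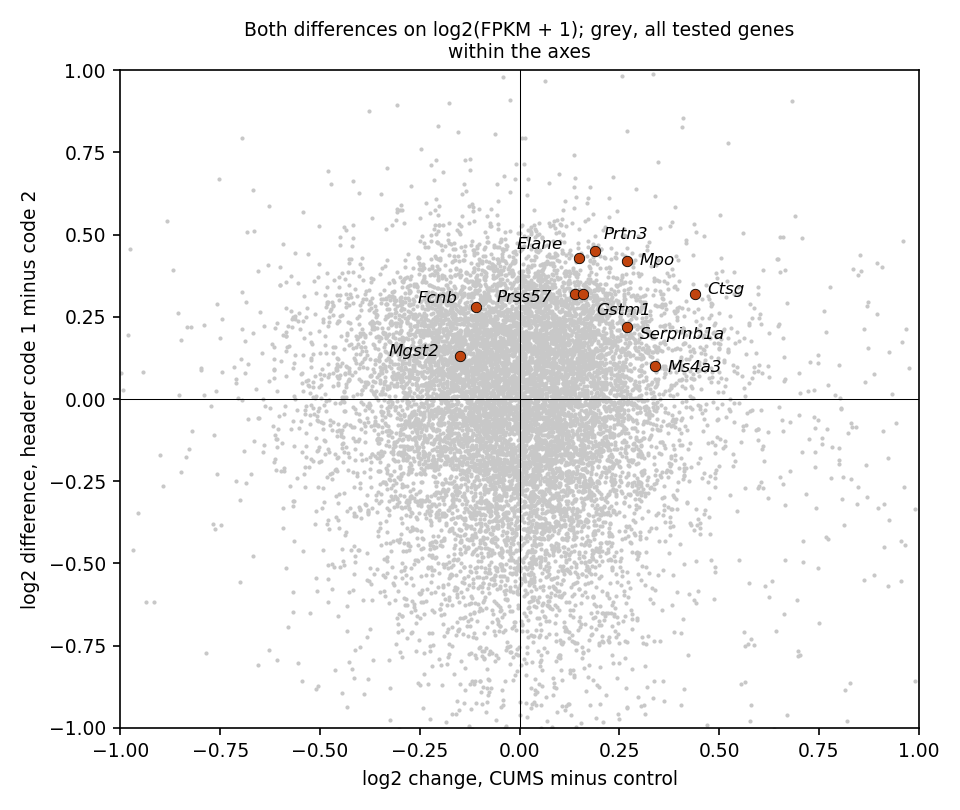
Log2 difference between header codes (code 1 minus code 2, vertical) against the log2 change between groups (CUMS minus control, horizontal) for the 10 genes (orange) and all tested genes within the axes (grey). All 10 lie above 0 on the vertical axis, and Mpo, Elane and Prtn3 lie highest, at 0.42 to 0.45.

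Ratios between genes of 1 library do not depend on how that library was scaled. Of the 45 ratios among the 10 genes, 20 had groups that did not overlap. For ratios of 1 of the 10 to each of 12281 tested genes, that share was 16% (Elane) to 44.5% (Ctsg). Of the 20, 16 were the ratios of Fcnb or Mgst2 to each of the other 8 genes. Fcnb and Mgst2 were thus lower relative to each of these 8 genes in all CUMS libraries than in any control library. The 16 ratios share these 2 genes, the only ones of the 10 with a negative log2 change, and so partly restate it. Some gaps were small: Prss57 over Fcnb was 0.0652 in CUMS replicate 2 and 0.0638 in control replicate 2. Ctsg over Fcnb was 1.01, 1.06 and 1.13 in CUMS, and 0.791, 0.724 and 0.671 in controls. Ms4a3 over Mgst2 was 1.77, 1.87 and 1.88 in CUMS, and 1.31, 1.32 and 1.27 in controls. Mpo over Elane also stood apart, at 0.877, 0.817 and 0.831 in CUMS, and 0.732, 0.804 and 0.776 in controls. As a background, the ratio of Fcnb to a tested gene was lower in all CUMS libraries for 14.8% of 12281 genes, and that of Mgst2 for 22.5%. The ratio of Ctsg to a tested gene was higher in all CUMS libraries for 43.7%, and that of Ms4a3 for 42.7%. An exact permutation test of 1 ratio in 3 against 3 libraries cannot go below 0.1, so that no p is given. Of the other membrane-bound glutathione transferases, Mgst1 was at 106.0, 97.3 and 92.5 FPKM in CUMS and 133.4, 102.2 and 103.2 FPKM in controls, and Mgst3 at 105.0, 101.6 and 93.7 FPKM in CUMS and 96.7, 68.3 and 70.5 FPKM in controls.

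The 10 genes together summed to 3125, 2369 and 2487 FPKM in CUMS, and to 2766, 2002 and 2212 FPKM in controls, which overlapped. Set against the genes of later stages, the groups stood apart, though narrowly for the mature neutrophil genes. How often sums over other genes would stand apart was not tested. Specific granules are made at the following myelocyte stage, though not every gene listed for them, such as Cyba, need be confined to it. Per 100 FPKM of the 15 listed specific granule genes, the sum was 14.6, 12.9 and 13.8 FPKM in CUMS, and 11.4, 10.8 and 11.4 FPKM in controls. Per 100 FPKM of 15 mature neutrophil genes it was 7.97, 5.84 and 6.35 FPKM in CUMS, and 5.42, 5.52 and 5.63 FPKM in controls. The specific granule genes had a median log2 change of −0.11 and the mature neutrophil genes one of −0.14, and none of either list passed the test. With the code as a term 2 specific granule genes rose, the chitinase-like Chil3 (log2 change 0.27, adjusted p = 0.0453) and Olfm4, olfactomedin 4 (0.32, adjusted p = 0.0344), and 1 fell, Cyba, a subunit of the NADPH oxidase (−0.40, adjusted p = 0.0151). In that fit 1 mature neutrophil gene rose, the cytokine Il1b (0.27, adjusted p = 0.0228), and 2 fell, Mmp9, gelatinase B (−0.50, adjusted p = 0.00708), and G0s2. In code 2 alone 2 specific granule genes rose and 2 fell, and 1 mature neutrophil gene rose and 4 fell. Of all tested genes 6.06% rose and 7.31% fell with the code as a term. In code 2 alone 8.82% rose and 8.84% fell.

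**Figure D4:**
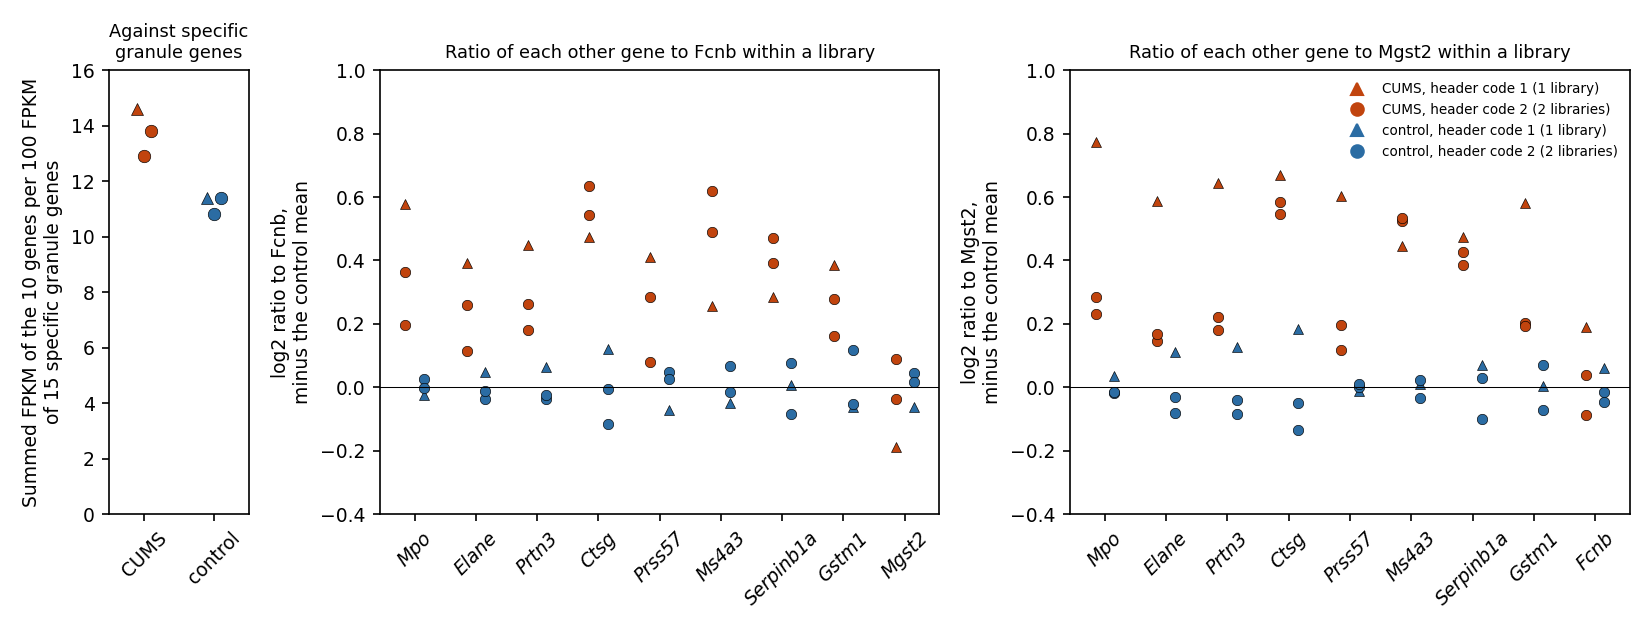
Left, summed FPKM of the 10 genes per 100 FPKM of 15 specific granule genes in each library; middle and right, log2 ratio of each other gene to Fcnb and to Mgst2 within a library, minus the mean of the 3 controls. CUMS libraries (orange) lie above control libraries (blue) in the left panel (12.9 to 14.6 against 10.8 to 11.4) and for all ratios shown except that between Fcnb and Mgst2.

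Other genes of the granule came from lists of the pathway, each without the 10 genes. The shares of all tested genes just given are the background for calls in these and all later lists. No list was tested against them. None of 12 genes for storing, sorting and processing the granule proteins passed with group alone (median log2 change 0.10). With the code as a term 2 rose, Canx, the chaperone calnexin (log2 change 0.27, adjusted p = 0.0417), and Cst7, cystatin F, which inhibits the protease that activates the serine proteases (0.42, adjusted p = 0.00912). In code 2 alone 4 rose and 1 fell. That activating protease, Ctsc (cathepsin C), was at 16.1, 17.4 and 16.8 FPKM in CUMS, and at 21.7, 18.9 and 19.2 FPKM in controls, with a log2 change of −0.23 (adjusted p = 0.299, and 0.0779 with the code). The proteoglycan core Srgn, which packs the proteases in the granule, was at 231.3, 211.7 and 218.0 FPKM in CUMS, and at 231.5, 179.7 and 183.0 FPKM in controls.

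Other proteins found in azurophil granules, mainly lysosomal hydrolases and lysozymes that macrophages and monocytes also express, had mostly lower values in CUMS. Of 18 tested, 5 had a positive log2 change and the median was −0.13. None passed with group alone, and with the code as a term 1 rose (Arsb, arylsulfatase B) and 6 fell. In code 2 alone none rose and 7 fell. Psap, the precursor of the saposins, had a log2 change of −0.50 (adjusted p = 0.0612, and 0.00233 with the code). Lyz2, lysozyme of neutrophils and macrophages, was at 4544, 3744 and 3830 FPKM in CUMS, and at 6878, 4956 and 4903 FPKM in controls, so that all CUMS libraries were below all control libraries. Bpi was at or below 0.188 FPKM in every library.

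Transcription factors of the promyelocyte stage did not pass with group alone (17 tested, median log2 change −0.14), and with the code as a term 1 rose and 3 fell, and in code 2 alone none rose and 5 fell. Irf8, which directs progenitors to the monocyte fate, fell with the code as a term (log2 change −0.26, adjusted p = 0.0281), as did Spi1, which encodes PU.1. Spi1 was at 167.0, 130.0 and 121.0 FPKM in CUMS, and at 179.0, 163.2 and 172.9 FPKM in controls. Cebpa was at 31.2, 20.8 and 24.0 FPKM in CUMS, and at 32.1, 30.1 and 30.3 FPKM in controls. Gfi1, a repressor needed for neutrophil differentiation, averaged 14.5 ± 0.334 FPKM in CUMS and 11.9 ± 0.95 FPKM in controls, without overlap (log2 change 0.26, adjusted p = 0.25, and 0.0605 with the code).

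Among 17 other progenitor and promyelocyte genes none passed with group alone (median 0.07), and with the code Kit, the stem cell factor receptor, rose and Clec12a, an inhibitory lectin receptor, fell, while in code 2 alone 2 rose and 3 fell. Among 14 other protease inhibitors none passed (median 0.13), and with the code Stfa1, a stefin, rose and Cst3, cystatin C, fell, while in code 2 alone 2 rose and 1 fell. Beside such counts, 6.06% of all tested genes rose and 7.31% fell with the code. The shares in code 2 alone were 8.82% and 8.84%. Among 16 other glutathione transferase and leukotriene genes none passed (median 0.11), and with the code 3 rose, among them Gstm5, and Gstp2 fell, while in code 2 alone 2 rose and 1 fell. Among 20 proliferation genes none passed (median 0.19). Of these 18 had positive changes, and with the code 5 rose (Mki67, Mcm2, Mcm3, Tyms and Rrm2), against 6.06% of all tested genes, while in code 2 alone 13 of the 20 rose, against 8.82% of all tested genes.

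Genes beside the 10 on the chromosome were examined because Prss57, Prtn3 and Elane lie within 1 stretch of chromosome 10, and Mpo beside other peroxidase genes on chromosome 11. Of 23 tested neighbours 1 passed with group alone, Epx, eosinophil peroxidase, while with the code as a term 2 rose and 1 fell, and in code 2 alone 4 rose and 3 fell. Of all tested genes 6.06% rose and 7.31% fell with the code, and 8.82% rose and 8.84% fell in code 2 alone. Epx lies downstream of Mpo (first bases at 87863997 and 87793784 of chromosome 11, GRCm38.p6) and is its closest relative in sequence, with 71.9% identity over 2059 bases. Epx was at 79.3, 72.8 and 74.0 FPKM in CUMS, and at 39.2, 35.7 and 38.5 FPKM in controls, a log2 change of 0.98 (adjusted p = 0.00551). Lpo, the peroxidase gene between them, was at most 0.303 FPKM. Near Elane, Cfd was at most 0.542 FPKM and Med16 had a log2 change of −0.03 (adjusted p = 0.932), and near Ctsg, the basophil protease Mcpt8 had one of 0.08 (adjusted p = 0.877). In code 2 alone Mcpt8 rose (0.25, limma adjusted p = 0.0379), as Ctsg did, and Med16 did not pass (−0.15, adjusted p = 0.293).

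Markers of other marrow cells moved with the groups as well, and their part in the results above was not tested. The summed FPKM of 9 eosinophil markers was 1693 to 1744 in CUMS and 774.0 to 1050 in controls, and 4 of the 9 rose with group alone. That of 8 monocyte markers was 1002 to 1058 in CUMS and 1006 to 1205 in controls, and 2 of the 8 fell with group alone. That of 9 B cell markers was 488.0 to 548.2 in CUMS and 582.5 to 684.1 in controls, and that of 6 stromal markers 107.4 to 111.9 in CUMS and 80.0 to 85.6 in controls, with no call among the first and 1 of 6 higher among the second. That of 10 erythroid markers was 191603 to 234151 in CUMS and 164627 to 195919 in controls, which overlapped, and those of 7 T cell, 8 basophil and mast cell and 5 megakaryocyte markers overlapped, with no call in any of these 4 lists with group alone. With the code as a term 1 erythroid marker (Car1), 1 T cell marker (Trbc1) and 1 basophil and mast cell marker (Kit) rose, 8 eosinophil and 3 stromal markers rose, 5 B cell markers fell, and 1 monocyte marker (Klf4) rose and 4 fell. Some lists share genes, so these calls are not all separate results. Kit is also the progenitor gene that rose above, and Klf4 the transcription factor that rose. Epx and Mcpt8 are also among the neighbours. In code 2 alone 5 erythroid, 2 basophil and mast cell, 7 eosinophil and 4 stromal markers rose, and 4 B cell and 4 monocyte markers fell. No marker of any list was at 0 in all libraries. Of all FPKM in a library, alpha and beta globin held 31.7% to 35.2% in CUMS and 28.8% to 29.2% in controls.

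The genes whose levels were most like those of the 10 over the 6 libraries were not granule genes. By Pearson correlation of log2(FPKM + 1) with the mean of the standardised values of the 10, among 5616 other tested genes with a mean of at least 10 FPKM, these were Rpl6l (r = 0.999), Nudt21 and Ran (0.998 each), Lta4h and Tuba4a (0.997 each) and Rpl6 (0.995), and 485 genes reached 0.9. The header code moves with these values too: in each group replicate 1, of code 1, was the highest for Ran, at 174.1, 137.7 and 143.4 FPKM in CUMS and 167.5, 114.3 and 124.1 FPKM in controls. Among the 10, Prtn3 and Elane followed the mean most closely (r = 0.985 and 0.979), and Ms4a3, Fcnb and Mgst2 least (0.68, 0.669 and 0.316). That mean includes the gene itself. The pair with the highest correlation was Ctsg and Serpinb1a (r = 0.997 over 6 libraries), and no background of pairs was computed.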

How the data were processed

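The 10 genes, the gene lists, the motifs and the tests were chosen with earlier results of these data known, and the motifs with the promoter sequences in view. Total RNA was extracted with TRIzol and made into TruSeq libraries read as pairs of 151 bp, per the labels' protocols. Tools and a build are listed, without roles, in the submitters' processing notes: HISAT2 (2.1) and featureCounts (1.6.4), cutadapt (1.16.5), bcl2fastq (2.19), DESeq2 (2.11.40.6), and mm10, which is GRCm38. The deposited values are FPKM, a unit read from the values, since no label or header names it. They come without counts, so depth is unknown and precision rests on 3 libraries per group.

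The 12302 genes that reached 1 FPKM in 3 or more of the 6 libraries were tested with limma 3.58.1 in R 4.3.3 (trend) on log2(FPKM + 1), a pseudocount of 1 that shrinks changes of low genes, and called at a Benjamini-Hochberg adjusted p under 0.05 over all tested genes. All genes of a list called with group alone, and up to 3 with the smallest p, were to be named; others were chosen after their values were seen. The fit was also run on simulated data with independent errors, and no result here rests on that run.

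The titles number the replicates 1 to 3 in each group. Deviations from the group means correlated by 0.689, 0.452 and 0.363 between libraries of the same number, so the number was taken as a block in an alternative fit, though replicates 2 and 3 correlated as much when crossed (0.459 and 0.362). Other alternatives were a pseudocount of 0.1, no filter, scaling to the same sum, quantile normalization, the header code as a term or code 2 alone, and leaving out each library. Promoters and coordinates are from RefSeq (GRCm38.p6), with entries for 8 of the 10 genes. Exon overlaps and transcript alignments (BLAST+ 2.17.0) are from GENCODE M21 (GRCm38). Python 3.11.15 with numpy 2.4.6, pandas 2.3.3 and matplotlib 3.10.9 was used for tables and plots.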

Additional observations from a re-analysis of the deposited data

How the results depend on the processing

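With group as the only term none of the 10 genes was called, and this held with a pseudocount of 0.1, without the filter, after scaling to the same sum and after quantile normalization. It was 1 with the replicate block (Ctsg, which changed no other call among the 10), 4 with the header code as a term, 3 in code 2 alone, and 0 to 3 when 1 library was left out (3 without control replicate 1). The number of called genes over the whole table was 132, and 36 without the filter, 199 after quantile normalization, 959 with the replicate block, 1645 with the code as a term, 2173 in code 2 alone, and 17 to 262 when 1 library was left out. The cause was not tested. Without the filter more genes enter both the fit and the adjustment, and their parts were not separated. The median log2 change of the 10 was 0.14 to 0.19 in the other fits. It was 0.04 (without CUMS replicate 1) to 0.32 (without control replicate 1) when 1 library was left out. Without replicate 1 of either group, code 1 is left in 1 group alone, and a difference between the codes enters the change. The summed level had a log2 ratio of 0.19 (CUMS over control), 0.16 after scaling and 0.21 without Elane. Of 130 alternative values of the 10 genes 118 kept direction and call, 11 became calls and 1 changed sign (Fcnb, −0.21 to 0.01 when 1 library was left out, with 0.01 without control replicate 1). Among the other named genes 561 values kept both, 96 became calls and 32 lost one. At unknown depth, no limit can be set for genes listed near 0.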
